A study of Mus musculus with 6 samples.

Results

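The Hoxb cluster is a row of 10 homeobox genes on mouse chromosome 11, numbered Hoxb1 to Hoxb9 and Hoxb13. All probes of the bead array whose gene symbol equals one of these names were taken, without regard to their values, which gave 15 of 45281 probes. There was 1 probe each for 7 of the genes, while Hoxb1 and Hoxb7 had 2 and Hoxb3 had 4. The array measured total RNA of oligodendrocyte precursor cells (OPC), the dividing and migrating glial cells that later form myelin. Spinal cord OPC (3 arrays) and cerebrum OPC (3 arrays) were primary cultures of C57BL/6 mouse pups aged 6 to 8 days. Both kinds were grown for 7 days with 10 ng/ml PDGF-AA, the growth factor that keeps OPC dividing. Each preparation pooled 3 to 4 pups and has a replicate number that a spinal cord and a cerebrum sample share.

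Hox genes encode transcription factors whose homeodomain binds DNA, and they set the identity of body levels from the hindbrain to the tail. Within a cluster the gene order follows the body axis: genes at the Hoxb1 end are switched on earlier and further forward in the embryo than those at the Hoxb13 end, a rule called collinearity. The forebrain, which includes the cerebrum, develops without Hox expression, while hindbrain and spinal cord keep a Hox code in their cells. Hox proteins bind DNA together with Pbx and Meis cofactors. Retinoic acid and Cdx factors help to open the clusters, and Polycomb proteins keep them silent.

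In the RefSeq gene order (GRCm38.p6, used for names and neighbours) the cluster lies between Skap1 on the Hoxb1 side and Ttll6 on the Hoxb13 side. The annotated span of Hoxb3 includes Hoxb4, so the symbols of these genes mark overlapping loci. The microRNA gene Mir10a lies in this stretch, and Mir196a-1 lies between Hoxb9 and Hoxb13. Promoter sequence was found in the RefSeq promoter table for 3 of the 10 genes. These 3 are shown, as the 250 bases before the start of the transcript, because they stand for the different readings described below: Hoxb4 was high in spinal cord OPC, and Hoxb1 and Hoxb8 were read at background on either side of the high genes. Capitals mark matches on either strand to TGAT and ATGG with any 2 bases between them, a Pbx and Hox binding sequence, and to TTTATG, a Cdx binding sequence.
Hoxb1 promoter, chr11:96365508-96365757, plus strand: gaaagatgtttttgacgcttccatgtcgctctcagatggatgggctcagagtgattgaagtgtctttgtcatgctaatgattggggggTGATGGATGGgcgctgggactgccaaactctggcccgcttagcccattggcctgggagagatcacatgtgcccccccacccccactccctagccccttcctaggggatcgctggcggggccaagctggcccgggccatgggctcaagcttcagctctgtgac
Hoxb4 promoter, chr11:96318017-96318266, plus strand: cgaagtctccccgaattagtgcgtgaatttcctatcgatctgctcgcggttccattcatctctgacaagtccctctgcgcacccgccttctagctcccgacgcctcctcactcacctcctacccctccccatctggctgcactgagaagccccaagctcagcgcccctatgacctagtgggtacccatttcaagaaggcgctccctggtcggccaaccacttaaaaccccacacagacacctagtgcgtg
Hoxb8 promoter, chr11:96281655-96281904, plus strand: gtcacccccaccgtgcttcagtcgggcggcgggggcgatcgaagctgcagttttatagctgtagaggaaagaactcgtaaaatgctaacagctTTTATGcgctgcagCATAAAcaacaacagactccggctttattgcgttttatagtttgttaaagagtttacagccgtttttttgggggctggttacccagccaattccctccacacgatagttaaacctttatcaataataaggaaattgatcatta

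The Hoxb1 window held 1 match to the Pbx and Hox sequence, 162 bases before the start, a motif found in 0.603% of the 32851 promoter windows of this length in the table. The Hoxb8 window held 2 matches to TTTATG, 157 and 143 bases before the start, a motif found in 10.8% of windows. It also held 2 matches to TATAAA on the minus strand, found in 12.4% of windows. The Hoxb4 window held none of these and 1 match to AGGTCA, the half-site of retinoid receptors, 81 bases before the start on the minus strand, found in 14% of windows. The matches to TTTATG and TATAAA in the Hoxb8 window lie apart from each other. A match is a stretch of letters and was not measured as a binding site.

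The microRNAs of the locus are shown as landmarks with the seed (bases 2 to 8) in capitals, since Mir10a lies among the genes that were high in spinal cord OPC and Mir196a-1 beyond them. No probe carried the symbol of either, so their levels were not measured here. In the mouse embryo miR-196a is known to cut the Hoxb8 mRNA.
miR-10a-5p: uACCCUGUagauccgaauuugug
miR-196a-5p: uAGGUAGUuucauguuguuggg

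Background was read from 1302 probes of olfactory receptor (Olfr) genes, which OPC are not expected to express. Their median was 5.71 to 5.73 (log2 intensity) over the 6 arrays. A probe counted as detected above the level that 95% of an array's Olfr probes stayed under, called the floor, which was 6.07 to 6.10. Between 44.9% and 46.6% of all probes lay above the floor on an array. Of 12 OPC markers listed, the 4 named here by rule were bright or detected in both tissues. C1ql1 of that list was above the floor on 1 array only. Of the 11 tested, 0 passed as higher in spinal cord OPC and 1, Gpr17, as lower (values below). Pdgfra, the PDGF-AA receptor, had 13.36 ± 0.07 in spinal cord OPC and 13.56 ± 0.15 in cerebrum OPC (log2 intensity, SD, n = 3 each). The log2 difference, spinal cord minus cerebrum, was -0.20 ± 0.10 (SE) for Pdgfra, 0.11 ± 0.11 for Sox10, 0.01 ± 0.10 for Cspg4 and -0.03 ± 0.09 for Olig2. None of the 4 passed the threshold in limma, with adjusted p from 0.586 to 0.994.

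Of the 10 genes 5, namely Hoxb2, Hoxb4, Hoxb5, Hoxb6 and Hoxb7, were higher in spinal cord OPC than in cerebrum OPC. They form a block in the cluster that is broken by Hoxb3, whose signal stayed near background in both tissues. Hoxb1 at one end and Hoxb8, Hoxb9 and Hoxb13 at the other were not above background on any of the 6 arrays. Of the 15 probes 8 had all 3 spinal cord arrays above all 3 cerebrum arrays, 7 overlapped between the tissues and 0 had the opposite order. Over all 45281 probes 6.23% had the spinal cord arrays on top in this way, and 7.53% of the probes that met the filter described next.

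Differences were tested with limma on the whole table, and a probe passed at an adjusted p (Benjamini-Hochberg) under 0.05. In the fit of all probes without a filter 6 of the 15 Hoxb probes passed, all higher in spinal cord OPC, while 0.682% of all probes passed in that direction and 1.07% in either. A filter that kept probes above the floor on at least 3 arrays left 7 Hoxb probes of 6 genes among 20988 tested probes. Of these the same 6 passed, against 1.48% of all tested probes in that direction (2.85% with the preparation as a block), and 0 were lower, against 0.829%. All but Hoxb2 met the filter only through their spinal cord arrays, so the count among tested probes is given as a description.

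**Figure D1:**
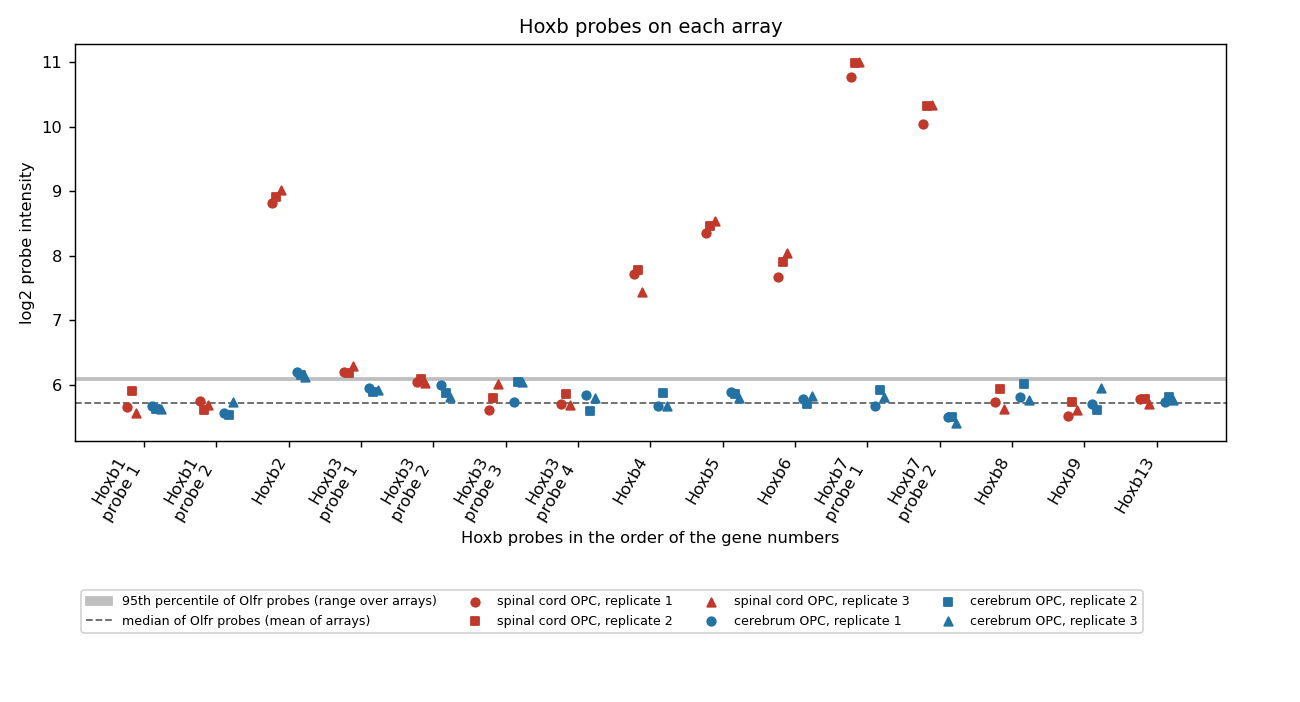
Log2 intensity of each Hoxb probe on each array, with spinal cord OPC (red) left of cerebrum OPC (blue), a grey band at the Olfr floor (6.07 to 6.10) and a dashed line at the Olfr median. The 6 probes of Hoxb2, Hoxb4, Hoxb5, Hoxb6 and Hoxb7 stand between 7.44 and 11.00 in spinal cord OPC, and all other points of the plot lie below 6.30.

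Hoxb1 helps to set the identity of a hindbrain segment and of facial motor neurons. Its brighter probe had log2 intensities of 5.66, 5.90 and 5.57 in spinal cord OPC, against 5.66, 5.63 and 5.62 in cerebrum OPC. The other probe had 5.75, 5.61 and 5.68 in spinal cord OPC, against 5.55, 5.54 and 5.74 in cerebrum OPC. The tissues overlapped on both probes, and every value lay within the range of the Olfr probes, at Olfr percentiles of 11.5 to 84.6. In the fit without a filter the log2 difference was 0.07 with a 95% interval of -0.12 to 0.26 for the brighter probe, and 0.07 (-0.11 to 0.24) for the other.

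Hoxb2, which patterns the hindbrain next to Hoxb1, had 8.81, 8.92 and 9.02 in spinal cord OPC, against 6.20, 6.16 and 6.11 in cerebrum OPC (log2 intensity). The groups were far apart. Hoxb2 was also the one Hoxb gene above the floor on all 3 cerebrum arrays, by a small margin, at Olfr percentiles of 95.5 to 97.8. It was higher in spinal cord OPC by 2.76 ± 0.10 (log2, SE), or 6.77-fold, with an adjusted p of 4.44e-09 in limma. With a stricter floor, the 99th Olfr percentile, it was not above background in cerebrum OPC, and the fold reads at least 6.03.

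Hoxb3 acts with its paralogues in the caudal hindbrain and neck, and its 4 probes are all described in the array's table as transcript variant 2. The brightest had 6.19, 6.17 and 6.29 in spinal cord OPC, against 5.96, 5.89 and 5.92 in cerebrum OPC. It lay just above the floor on the 3 spinal cord arrays, at Olfr percentiles of 96.9 to 98.7, and below it on the cerebrum arrays. The log2 difference was 0.30 ± 0.08 (SE), which did not pass in limma (adjusted p = 0.0896, unadjusted p = 0.00257; 0.0599 to 0.343 over the alternatives). The second probe had 6.05, 6.09 and 6.03 in spinal cord OPC, against 5.99, 5.87 and 5.81 in cerebrum OPC, and was above the floor on 1 spinal cord array. Neither of the other two probes passed the floor on any array, with tissue means of 5.75 to 5.94, and their tissues overlapped. The probes of Hoxb3 thus disagreed in sign, with log2 differences without a filter of 0.30, 0.16, -0.14 and 0.01.

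Hoxb4, known for expanding blood stem cells when it is overexpressed, had 7.72, 7.77 and 7.44 in spinal cord OPC, against 5.67, 5.88 and 5.66 in cerebrum OPC (log2 intensity). Spinal cord replicate 3 was the lowest of its group, still well above every cerebrum array. In cerebrum OPC the probe was not above background, so the fold is a bound, which sets the mean of spinal cord OPC against the floor of the cerebrum arrays. In spinal cord OPC Hoxb4 was higher by at least 2.94-fold (adjusted p = 4.90e-07 in limma).

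Hoxb5, which acts in shoulder position and in the neural crest of the gut in the mouse, had 8.35, 8.46 and 8.54 in spinal cord OPC, against 5.89, 5.86 and 5.79 in cerebrum OPC. In spinal cord OPC it was higher by at least 5.14-fold (adjusted p = 5.35e-09 in limma). Hoxb6, which contributes to the patterning of vertebrae and ribs, had 7.68, 7.90 and 8.05 in spinal cord OPC, against 5.77, 5.70 and 5.82 in cerebrum OPC. Its fold was at least 3.45, higher in spinal cord OPC (adjusted p = 1.55e-07). On both probes the cerebrum values lay within the Olfr range, at percentiles of 45.2 to 83.3.

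Hoxb7, whose promoter is widely used to mark the ureteric bud of the kidney, had 2 probes, and both were far apart between the tissues. The brighter probe had 10.77, 10.98 and 11.00 in spinal cord OPC, against 5.67, 5.91 and 5.80 in cerebrum OPC (log2 intensity). The other had 10.04, 10.33 and 10.33 in spinal cord OPC, against 5.50, 5.50 and 5.41 in cerebrum OPC. Neither was above background in cerebrum OPC, where the dimmer probe lay at Olfr percentiles of 0.8 to 6.5. In spinal cord OPC Hoxb7 was higher by at least 28.5-fold by the brighter probe (adjusted p = 3.03e-11 in limma) and at least 17.7-fold by the other (3.94e-11).

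Hoxb8, whose loss leads to excessive grooming in mice, had 5.74, 5.93 and 5.62 in spinal cord OPC, against 5.80, 6.01 and 5.77 in cerebrum OPC. Hoxb9, which acts in rib patterning, had 5.52, 5.74 and 5.61 in spinal cord OPC, against 5.70, 5.60 and 5.94 in cerebrum OPC. Hoxb13, the last gene of the cluster, known from the tail end of the spinal cord and the prostate, had 5.78, 5.77 and 5.70 in spinal cord OPC, against 5.74, 5.81 and 5.76 in cerebrum OPC. All values lay below the floor and the tissues overlapped for each gene. Without a filter the log2 difference was -0.10 (95% interval -0.30 to 0.10) for Hoxb8, -0.13 (-0.32 to 0.07) for Hoxb9 and -0.02 (-0.18 to 0.14) for Hoxb13. Each of the 3 genes had 1 probe, so a transcript that this probe does not bind would be missed.

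**Figure D2:**
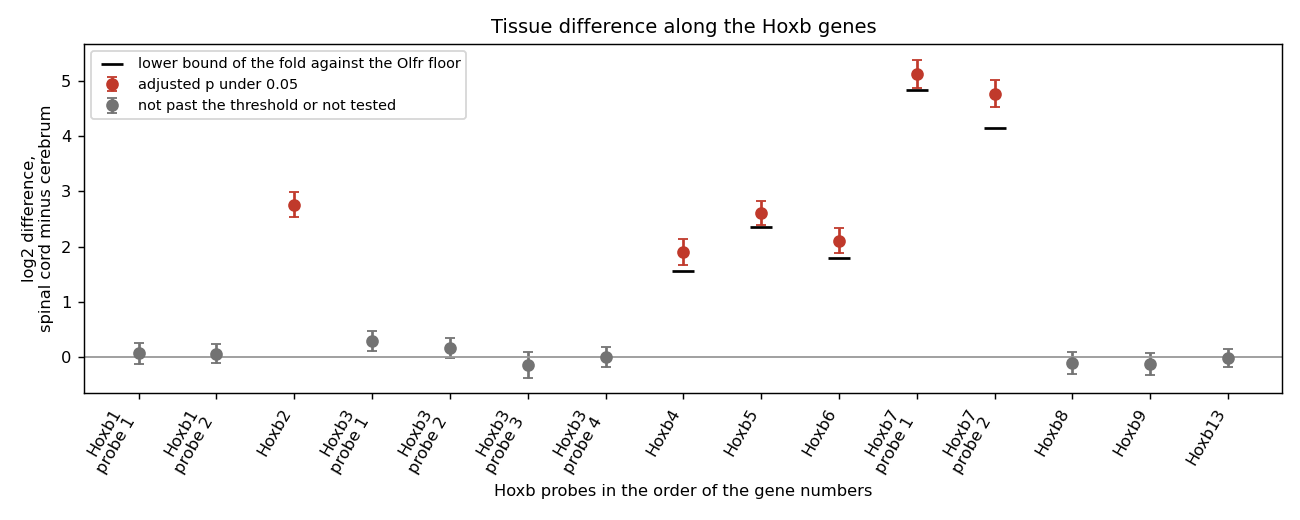
Log2 difference (spinal cord minus cerebrum) of each Hoxb probe from the fit without a filter, with 95% intervals, in red where the adjusted p was under 0.05 in the filtered fit. Black bars give the lower bound of the fold for probes not above background in cerebrum OPC, and the points for Hoxb1, Hoxb3, Hoxb8, Hoxb9 and Hoxb13 lie between -0.14 and 0.30.

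The 6 probes that passed remained past the threshold in each of the 13 alternatives run, with adjusted p in limma of at most 1.20e-05. The sizes of the differences depend on the background left in the values. With the Olfr median of each array subtracted and 16 added before log2, the fold of Hoxb2 was 12.9 in place of 6.77, and the bound was at least 5.23 in place of 2.94 for Hoxb4 and at least 60.9 in place of 28.5 for the brighter Hoxb7 probe. In RNA of whole cultures, fewer cells that express a gene and less RNA per cell cannot be told apart.

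Neighbouring genes were set against each other by the log2 difference of their brightest probes within an array, compared between the tissues in an exact two-sided permutation test over the 6 arrays (9 neighbour comparisons). With 3 arrays against 3 this test cannot give a p below 0.1. At every step from Hoxb1 to Hoxb8 the within-array differences did not overlap between the tissues (exact permutation p = 0.1, adjusted p = 0.129). How often pairs of other probes on the array stayed apart was not computed, so this only describes the Hoxb steps. No step passed the threshold. The steps Hoxb8 to Hoxb9 (exact permutation p = 1) and Hoxb9 to Hoxb13 (p = 0.5) overlapped. No size is given for a step, since each includes a gene at background in cerebrum OPC. At background, unlike brightness of 2 probes does not cancel between the tissues. A step without overlap therefore does not show that neighbouring genes differ in their change between the tissues.

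The series' design text says that samples of the same number hold cells of one preparation, so the difference can also be read within a number. Cerebrum values were at background for all of these genes but Hoxb2. For Hoxb2 it was 2.62, 2.76 and 2.90 in preparations 1, 2 and 3, for Hoxb4 2.05, 1.90 and 1.78, for Hoxb5 2.46, 2.60 and 2.75, and for Hoxb6 1.90, 2.20 and 2.23 (log2). The brighter Hoxb7 probe had 5.10, 5.07 and 5.20. The sign of these differences is fixed by the choice of probes whose tissues do not overlap. Preparation 1 had the smallest difference for Hoxb2, Hoxb5, Hoxb6 and the dimmer Hoxb7 probe and the largest for Hoxb4.

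**Figure D3:**
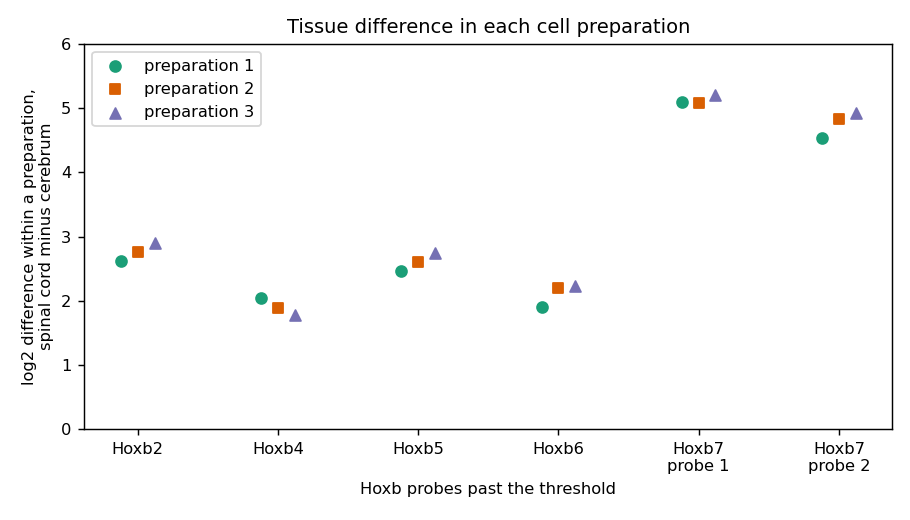
Log2 difference between the spinal cord and the cerebrum sample of the same cell preparation for the 6 Hoxb probes past the threshold. The points lie from 1.78 (Hoxb4, preparation 3) to 5.20 (brighter Hoxb7 probe, preparation 3), and the preparations lie close together for each probe.

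The other Hox clusters on the same arrays were set beside Hoxb. In the Hoxa cluster 6 of 8 tested genes (of 11) were higher in spinal cord OPC, in Hoxc 3 of 5 (of 9) and in Hoxd 5 of 6 (of 9), against 5 of 6 (of 10) in Hoxb, and 0 were lower in any cluster. Many of the tested genes met the filter only through their spinal cord arrays. In these other clusters Hoxa13, Hoxc10 and Hoxd11 had a probe above the floor on all 3 cerebrum arrays. Hoxa13 averaged 7.04 in spinal cord OPC and 7.13 in cerebrum OPC. Over every gene of a cluster, without the filter, the median log2 difference of the brightest probes was 1.10 in Hoxb (10 genes), 0.75 in Hoxa (11), 0.10 in Hoxc (9) and 1.30 in Hoxd (9), and -0.0027 over all probes. The calls of lowest adjusted p were Hoxa7 (at least 64.6-fold), Hoxa5 (at least 37.3-fold) and Hoxa2, Hoxc6, Hoxc10 and Hoxc9 (bounds of 21.2, 11.2 and 16.6), and Hoxd8 (at least 25.1-fold), Hoxd10 (at least 4.03-fold) and Hoxd9 (at least 2.44-fold), with adjusted p in limma of at most 5.82e-07. The Hoxc10 bound holds for its brighter probe only, since the dimmer of its 2 probes was above the floor on all 3 cerebrum arrays. At number 2, the log2 difference was 2.76 for Hoxb2 and 2.83 for Hoxa2, which was above the floor on 1 cerebrum array. At numbers 5 and 7 all of these genes were at background in cerebrum OPC, so the sizes of Hoxb5 and Hoxa5, and of Hoxb7 and Hoxa7, are known only as bounds and were not compared.

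The genes numbered 8 and above were also counted by what was detected, a division made after the values were seen and not tested. Of the 3 such Hoxb genes 0 were above the floor on all 3 spinal cord arrays by any probe. Of the 16 such genes of the other clusters 8 were, namely Hoxc9, Hoxd8, Hoxd9, Hoxd10, Hoxa9, Hoxc10, Hoxa13 and Hoxc13. Of these, 6 passed as higher in spinal cord OPC, while Hoxa13 and Hoxc13 did not. Among all probes 44.9% to 46.6% lay above the floor on a single spinal cord array. The counts of genes instead take any probe of a gene and ask for all 3 arrays. A share on that footing was not computed, so 8 of 16 is not read against it. The 3 Hoxb genes are too few to be set apart from the other clusters. Of the genes numbered 1 to 7, 5 of 7 passed in Hoxb and 8 of 13 in the other clusters (1.48% of all tested probes). Paralogues of the same number thus gave different readings: the bound for Hoxd8 was 25.1-fold, while Hoxb8 and Hoxc8 were read near background in both tissues.

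**Figure D4:**
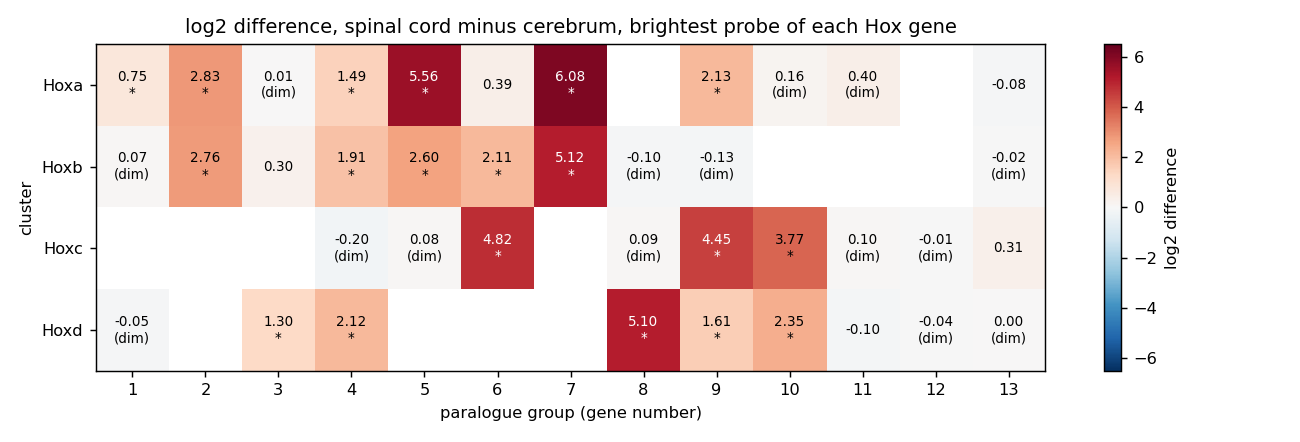
Log2 difference (spinal cord minus cerebrum, fit without a filter) of the brightest probe of every Hox gene, with clusters in rows and gene numbers in columns. Stars mark genes with an adjusted p under 0.05 in the filtered fit and "dim" marks genes with no probe above the floor on all 3 arrays of either tissue. Where a gene is at background in cerebrum OPC the size shown is set by that background. Hoxb is starred at numbers 2, 4, 5, 6 and 7 and dim at 1, 8, 9 and 13.

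None of the tested genes around the cluster passed the threshold. Of 18 neighbours and non-coding genes listed for the locus 9 had probes, 4 were tested (Snx11, Ube2z, Snf8 and Gip) and 0 passed in limma, also with 0 at an unadjusted p under 0.05. The largest differences were -0.16 ± 0.11 (log2, SE) for the ubiquitin-conjugating enzyme gene Ube2z and 0.04 ± 0.12 for Snx11, a sorting nexin gene. Skap1, next to the cluster on the Hoxb1 side, averaged 6.03 in spinal cord OPC and 6.09 in cerebrum OPC, near the floor. Ttll6 averaged 5.67 in spinal cord OPC and 5.69 in cerebrum OPC, and the non-coding gene Gm53, between Hoxb9 and Hoxb13, 5.81 in spinal cord OPC and 5.80 in cerebrum OPC, both below the floor on all arrays.

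Hox cofactors were detected in both tissues. Of 9 Meis, Pbx and Pknox genes, all tested, 1 was higher in spinal cord OPC and 0 lower, against 2 and 1 with the preparation as a block. Pbx3, a DNA-binding partner of Hox proteins, had 7.56 ± 0.03 in spinal cord OPC and 6.89 ± 0.09 in cerebrum OPC (log2 intensity, SD, n = 3 each), a log2 difference of 0.66 ± 0.10 (SE, adjusted p = 0.00203 in limma). Meis1 had 10.16 ± 0.06 in spinal cord OPC and 10.24 ± 0.09 in cerebrum OPC and did not pass.

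Among 23 genes linked to the control of Hoxb transcription 15 were tested and 1 was higher in spinal cord OPC, against 2 with the preparation as a block. Rarb, a retinoic acid receptor gene, had 7.03 ± 0.30 in spinal cord OPC and 6.30 ± 0.10 in cerebrum OPC, a log2 difference of 0.72 ± 0.13 (SE, adjusted p = 0.0107 in limma). It lost its call without spinal cord replicate 1, without spinal cord replicate 3 and without cerebrum replicate 2 (adjusted p up to 0.0797). Cdx2, an activator of the posterior Hox genes in the embryo, had 5.75 in spinal cord OPC and 5.74 in cerebrum OPC and was below the floor on all arrays. Its relative Cdx1 had 6.10 in spinal cord OPC and 6.16 in cerebrum OPC, was above the floor on 4 arrays and did not pass. Cdx4 was above the floor on 1 array. Of 17 Polycomb genes 13 were tested and 0 passed in limma, with 0 at an unadjusted p under 0.05. The largest Polycomb differences were 0.22 ± 0.13 (SE) for Rnf2 and 0.17 ± 0.11 for Eed.

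Markers of cells that such cultures can hold were read beside the Hoxb genes. Of 14 neuron markers on the array 5 were tested and 0 passed in limma (0 at an unadjusted p under 0.05), led by Elavl4 (0.28 ± 0.14) and Nefm (-0.16 ± 0.12, log2, SE). Of the 14, 7 were at or below the floor on all arrays, Snap25, Stmn2 and Nefl among them. The summed intensity of the neuron markers was 2127 to 2294 in spinal cord OPC and 2056 to 2332 in cerebrum OPC. Of 9 meningeal and fibroblast markers 2 were tested and 0 passed (1 at an unadjusted p under 0.05), with Prrx1 at -0.56 ± 0.15 (adjusted p = 0.104) and Col1a1 at -0.23 ± 0.12, and with summed intensity of 616 to 673 in spinal cord OPC and 661 to 801 in cerebrum OPC, and with Col1a2, Col3a1, Dcn, Lum and Pdgfrl at or below the floor. In the blocked fit limma called Prrx1 lower (adjusted p = 0.00372), as it did when cerebrum replicate 3 was left out (adjusted p = 0.000213). Of 11 microglia markers 2 (Csf1r 0.09 ± 0.11, Aif1 -0.05 ± 0.08) and of 9 endothelial and mural markers 4 (Tek -0.21 ± 0.08, Cdh5 -0.05 ± 0.09) were tested, with 0 passing in limma (0 and 1 at an unadjusted p under 0.05). At or below the floor on all arrays were 8 of the microglia markers, Cx3cr1 and P2ry12 among them, and 5 of the endothelial and mural ones, Pecam1 and Cldn5 among them. The microglia list summed to 639 to 642 in spinal cord OPC and 639 to 655 in cerebrum OPC, and the endothelial and mural list to 537 to 556 in spinal cord OPC and 549 to 572 in cerebrum OPC. Of 5 tested Schwann cell markers Dhh was higher by 0.91 ± 0.18 (adjusted p = 0.0181), a call lost without spinal cord replicate 1 or 2, and the list summed to 6167 to 6725 in spinal cord OPC and 4909 to 6582 in cerebrum OPC, with Foxd3 at or below the floor. Without cerebrum replicate 3 Egr2 of that list was called lower (adjusted p = 0.0156 in limma). Of 5 tested astrocyte markers Sox9 was lower by 1.25 on the log2 scale (-1.25 ± 0.18, adjusted p = 0.00155), while the median of the 5 was 0.12. Aldoc had 0.33 ± 0.10 (adjusted p = 0.150, called higher with the block at 0.0126 and without cerebrum replicate 3 at 0.0177 in limma), Slc1a2 0.21 ± 0.12, Slc1a3 0.12 ± 0.11 and Aqp4 -0.01 ± 0.08. Gfap, Gja1 and Fgfr3 were at or below the floor, and the list summed to 21205 to 22954 in spinal cord OPC and 23250 to 30948 in cerebrum OPC. Of 11 tested OPC markers Gpr17, a receptor of committed precursors, was lower (-1.37 ± 0.23, adjusted p = 0.00495), and Ptprz1 (-0.36 ± 0.12, adjusted p = 0.212) was called lower in limma with the block (adjusted p = 0.00777). The OPC list summed to 69698 to 75812 in spinal cord OPC and 76082 to 85653 in cerebrum OPC. All of these sums include background, which by the Olfr median was 52.3 to 53.0 per probe on an array. Sums of lists with most markers at the floor, such as the microglia list, are thus largely background and say little about cell content. The part of these cells in the Hoxb differences was not tested.

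The genes outside the Hox clusters most like the mean profile of the 6 Hoxb probes, by the root mean square distance of mean-centred log2 values over the 6 arrays, were Adcy8 (0.23), Irx5 (0.48) and Tmem132c (0.53). Adcy8 encodes an adenylyl cyclase, Irx5 an Iroquois homeobox factor and Tmem132c a transmembrane protein. Their log2 differences were 2.86, 2.31 and 2.19, against 3.21 for the mean Hoxb profile. The measure follows mostly the size of the tissue difference.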

How the data were processed

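Total RNA of 6 cultures was turned into biotinylated cRNA for Illumina arrays, per the labels' protocols, and the submitters' processing notes name GenomeStudio 2011.1. The deposited probe intensity values of the authors' table were linear, with the same minimum, upper quartile (162.7) and maximum on every array, so they had been normalised. Quantile normalisation hardly changed them: the log2 difference of the brighter Hoxb7 probe was 5.12364 with it and 5.12375 without. By what method they were normalised, and with what background correction, the labels do not say. A further deposited table gave the gene symbols. Its 12 columns of per-sample values match no sample label and were not used.

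Log2 intensities, spinal cord minus cerebrum, were tested with limma 3.58.1 in R 4.3.3 (lmFit, eBayes with intensity trend, Benjamini-Hochberg over all tested probes). The fit was tested on simulated data, and the outcome of that is not given here. In lists a gene stands for its brightest tested probe. Levels of different probes were set against each other only within an array, in the neighbour test. There the contrast between tissues removes a constant difference between probes only where both lie above background in both tissues. Most of these probes were at background in cerebrum OPC. Of 30869 symbols 16219 were current, 5718 matched a synonym of a single gene in RefSeq and 8932 matched none. Sequences are from RefSeq (GRCm38.p6). Probe sequences were not used here, so binding of a probe to a related Hox transcript was not tested.

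Replicate numbers mark a shared cell preparation per the series' design text. Deviations of same-numbered samples correlated at 0.53, 0.21 and 0.5, and those of other numbers at -0.45 to 0.03. The fit without the preparation as a block is reported. The number of arrays limits the precision. The members and lists were chosen with earlier results of these data known. All 10 members, in each list the 3 called genes of lowest adjusted p at most (where none was called, the 2 of largest difference), 4 OPC markers and the 3 most similar genes are named by rule. Skap1, Ttll6, Gm53, Snf8, Gip, Cdx2, Meis1, Hoxa9, Hoxc8, Aldoc, Slc1a2, Slc1a3, Aqp4, Ptprz1, Egr2, the markers at the floor and the comparisons by gene number were added after their values were seen. The same holds for Hoxa13, Hoxc13, Hoxd11, Cdx1 and Cdx4. Alternatives are listed in the closing section.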

Additional observations from a re-analysis of the deposited data

How the results depend on the processing

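The number of Hoxb probes past the threshold was 6 in the reported fit and in all 13 alternatives, which were no filter, a floor at the 99th Olfr percentile, Olfr subtraction, quantile normalisation, no intensity trend, a replicate block, the block without a filter (chosen after seeing the data), and leaving out each array. Hoxb3 passed in none of the 12 in which it was tested. Quantile normalisation hardly changed the deposited values, so that alternative is close to a repeat of the reported fit. The number of neighbour steps without overlap was 7 in the reported setting and in all 8 alternatives run for it. Leaving out an array cannot make separate groups overlap, so in those alternatives no step could be lost. The unchanged count is therefore given as a description. The count over all probes moved: 484 in the reported fit, 1068 with the replicate block (pairing by preparation), 922 with the block and no filter, and 285 to 899 without 1 array. It was 314 without spinal cord replicate 1, 285 without spinal cord replicate 2, 287 without cerebrum replicate 2 and 899 without cerebrum replicate 3. The cause was not tested. The pairing changed no call of a Hoxb probe (Hoxb3, adjusted p = 0.0599 with the block). Genes called across the other lists were 19, and 17 to 26 in the alternatives. Bounds on folds moved with the floor: the bound for the brighter Hoxb7 probe was 24.2 with the stricter floor and 60.9 with Olfr subtraction, and for Hoxb4 2.50 and 5.23. Values near the Olfr floor carry no order, and signal over background limits what can be read for Hoxb1, Hoxb3, Hoxb8, Hoxb9 and Hoxb13.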
